A study of Homo sapiens with 60 samples.

Results

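The 39 genes described here encode working parts of the lysosome: 5 proteins of its membrane, 6 proteases, 10 glycosidases, 3 sulfatases, 4 proteins that handle lipids, 5 subunits of the membrane-bound V0 part of the proton pump, its accessory protein among them, and 6 subunits of the pump's V1 part. They were chosen by name for their role in the lysosome, with earlier results of these data known. Each symbol matched 1 of the 60675 genes in the count table. After genes with low counts were removed, 38 of the 39 remained among the 16675 genes tested. The exception was CTSZ (cathepsin Z, a protease), whose level lay between 0 and 0.364 CPM (counts per 1000000 counts, after scaling of the libraries) and was 0 in 1 of 60 libraries.

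HepG2, a human cell line from a liver tumour, was treated for 24 h with ethanol extracts of 6 herbs and 2 herbal formulas, each at 3 doses, or with the DMSO vehicle, and total RNA was sequenced. Coptidis Rhizoma and Bupleuri Radix were given at 280 µg/mL (high), 56 µg/mL (medium) and 11.2 µg/mL (low). Zizyphi Fructus, Citri Unshius Pericarpium, Cimicifugae Rhizoma, Aconiti Lateralis Radix Preparata, Yijung-tang and Banhasasim-tang were given at 500, 100 and 20 µg/mL. The high dose was the one that reduced cell growth by 20%, or 500 µg/mL where that limit was not reached, so high doses were not matched for concentration. The vehicle group had 3 libraries; Citri, Cimicifugae, Bupleuri and Aconiti had 3 libraries at each dose; Coptidis, Zizyphi and Yijung-tang had 2; Banhasasim-tang had 1. The label of the vehicle libraries names 0.1% DMSO, whereas the series text names 2%. Nothing says that replicates were separate cultures, so a p-value rests on the spread between libraries, which may be technical. That spread was estimated over 22 groups fitted together, and not only from the libraries compared.

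Lysosomes are acidic compartments in which hydrolases take apart proteins, sugars and lipids that reach them by endocytosis or autophagy. The acid comes from the vacuolar ATPase, a rotary pump whose V1 part splits ATP in the cytosol and whose V0 part carries protons through the membrane. Most hydrolases are made in the endoplasmic reticulum and carried to the lysosome by the mannose 6-phosphate receptor. Many lysosomal genes share a promoter element, called CLEAR, whose core is the palindromic E-box CACGTG and which is bound by the transcription factors TFEB, TFE3 and MITF; in liver these factors respond to nutrients and to lysosomal stress.

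The promoter sequences of the members are shown because the longer word TCACGTG, an E-box with the T of the CLEAR element before it, marked 9 of the 26 members found in a RefSeq promoter table (GRCh38.p14; 250 bases before to 50 after each start site), on either strand. Over every gene of that source, 4.49% of 27305 genes held that word, and 8.77% held CACGTG, which it contains. The palindrome TCACGTGA, which contains both, stood in 5 of the 26 members and in 1.18% of all genes. The LAMP1 window alone held 6 copies of TCACGTG. A match is a description of letters and not of a bound site. The stretches below are 30 bases around 1 match in each of the 9 members, read 5′ to 3′ on the strand of the gene, with the E-box and those of its neighbours that belong to the element in capitals.
ATP6V0B, chr1:43974891-43974920, plus strand: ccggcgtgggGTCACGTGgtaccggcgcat
NEU1, chr6:31862930-31862959, minus strand: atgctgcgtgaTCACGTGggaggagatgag
CTSD, chr11:1763957-1763986, minus strand: gccggccgcgccCACGTGACcggtccgggt
LAMP1, chr13:113297199-113297228, plus strand: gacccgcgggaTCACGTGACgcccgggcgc
CLCN7, chr16:1475058-1475087, minus strand: gccgtcgctcaTCACGTGgccccgtcgcgc
ATP6V0D1, chr16:67481199-67481228, minus strand: cccccttatgGTCACGTGAggcgcttgcgc
GALNS, chr16:88857104-88857133, minus strand: caggcaccgcGTCACGTGACccgccgctgg
GAA, chr17:80101493-80101522, plus strand: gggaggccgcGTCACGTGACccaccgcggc
CTSA, chr20:45891298-45891327, plus strand: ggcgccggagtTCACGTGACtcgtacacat
Start sites are those of RefSeq, and GENCODE 29 places the outermost start of some of these genes further out. By GENCODE the stretches of ATP6V0B, CTSD, CLCN7, ATP6V0D1 and CTSA lie at least in part in an annotated exon of the gene, and those of the other 4 lie outside its exons. CTSL, the member with the largest fold change in the tests below, held no match in its RefSeq window. The 13 other members are ATP6V1H, PSAP, SGSH, MANBA, ASAH1, ATP6V1A, ATP6V1C1, HEXA, ATP6V1B2, CTSB, NAGLU, LAMP2 and ARSA.

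Libraries held 18015554 to 29549531 counts. Albumin (ALB), a marker of hepatocytes, lay between 7350 and 12010 CPM in all 60 libraries, and markers of other cell types were low. Of 7 macrophage, 6 fibroblast and 5 endothelial markers, PTPRC, DCN and KDR were at 0 in 60 of 60 libraries. Above 0 in every library were CD14 (0.520 to 3.59 CPM), COL1A1 (0.156 to 3.14 CPM), PDGFRB (4.24 to 16.4 CPM), PECAM1 (1.89 to 4.71 CPM), CDH5 (0.052 to 0.792 CPM), VWF (0.251 to 1.515 CPM) and TIE1 (0.522 to 12.95 CPM). The summed hepatocyte markers were lower with high-dose Coptidis (27070 to 27910 CPM) and high-dose Bupleuri (39010 to 41240 CPM) than with vehicle (44730 to 45480 CPM), and 9 of 10 were called lower with Coptidis and 7 of 10 with Bupleuri. Against vehicle 7 of 10 were also lower with high-dose Yijung-tang (39630 to 40620 CPM), 5 with Cimicifugae (38230 to 43450 CPM), 4 with Citri (42280 to 45380 CPM), 3 with Aconiti (40980 to 43210 CPM) and 0 with Zizyphi (46610 to 47750 CPM). In the same comparisons 1 of 10 was called higher with each of Coptidis, Yijung-tang, Cimicifugae, Citri and Aconiti, and 0 with Bupleuri and Zizyphi. Summed endothelial markers were 15.5 to 17.1 CPM with high-dose Coptidis against 4.29 to 5.18 CPM with vehicle, a sum carried by TIE1 (log2 fold change 3.83), with 1 other endothelial marker lower; CD14 (−1.82), PDGFRB (−0.43) and COL1A1 (−1.60) were lower there. The part of these markers in the results was not tested. Mitochondrial ribosomal RNA took 2.47 to 2.61% of counts with vehicle, 2.54 to 3.27% with Bupleuri, 10.2 to 11.8% with low and medium Coptidis and 5.41 to 5.68% with high Coptidis. Replicate 3 of low-dose Bupleuri stood apart from the other 2 libraries of its group along transcript length, and the low-dose Banhasasim library stood apart with 0.485% mitochondrial ribosomal RNA. In the sample titles the vehicle and each pair of extracts form separate sets (Coptidis with Zizyphi, Citri with Cimicifugae, Bupleuri with Aconiti, Yijung-tang with Banhasasim-tang), so against vehicle a treatment and its set cannot be told apart; the descriptions of the Coptidis and Zizyphi libraries name batch C, where their titles and the vehicle name batch D, so a batch may also separate these 2 extracts from the vehicle. Comparisons of doses of 1 extract, or of extracts of 1 set, do not rest on the vehicle. Values are relative to all transcripts of a library, and fewer cells of a kind cannot be told apart from less RNA per cell.

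In vehicle-treated HepG2 the members took 0.46% of all counts. Per kilobase of transcript, the highest mean levels were those of the sialidase NEU1 (157 CPM per kb), its partner CTSA (149 CPM per kb), the sphingolipid activator precursor PSAP (136 CPM per kb) and the aspartyl protease CTSD (133 CPM per kb). The proton channel subunit ATP6V0C followed at 109.5 CPM per kb and the cysteine protease CTSB at 99.0. At the lower end of the tested members stood the chloride-proton exchanger CLCN7 (13.5 CPM per kb), the mannosidase MANBA (12.0) and the sulfatases GALNS (7.17) and ARSA (7.05). CTSL, a cysteine protease, lay in the lower part of the order at 23.7 CPM per kb. Over all 60 libraries, with Banhasasim-tang included, LAMP1 ranged from 233 to 318 CPM (median 258), ATP6V0D1 from 58.4 to 92.4 CPM (median 64.5) and ATP6V1H from 28.7 to 55.1 CPM (median 32.5), whereas CTSL ranged from 43.6 to 258 CPM (median 48.9). In GUSB, which encodes beta-glucuronidase, 27.5% of the counts of the gene and its 12 pseudogenes fell on the pseudogenes, and its values are uncertain. Reads shared with other genes were split in CLCN7, CTSA, HEXA and FUCA2 in all libraries, and in CTSD, ATP6V0C, NPC1 and ATP6V1D in 73.3 to 88.3% of libraries, as their estimated counts were not whole there.

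With high-dose Bupleuri, members of every role class were higher than with vehicle. Against vehicle 28 of 38 tested members were higher and 0 lower at an adjusted p under 0.05 (edgeR quasi-likelihood, Benjamini-Hochberg over all 16675 genes), where 19.9% of all tested genes were higher and 19.1% lower. The median log2 fold change of the members was 0.32, against 0.00 over all tested genes, so changes were of modest size: no member reached a 2-fold difference. The higher members were 5 of 5 membrane proteins, 5 of 5 proteases, 5 of 10 glycosidases, 1 of 3 sulfatases, 3 of 4 lipid-handling proteins, 5 of 5 V0 and accessory subunits and 4 of 6 V1 subunits. By unadjusted p under 0.05, 30 were higher and 1 lower (all genes 23.4% and 22.6%). Related genes outside the members were called as follows in the same comparison. Of 25 further hydrolases and activators 10 were higher and 7 lower (median 0.05), and of 12 further pump subunits 3 and 0 (median 0.12). Of 15 further membrane proteins and transporters 10 were higher and 1 lower (median 0.37), and of 7 sorting genes 3 and 1 (median 0.14).

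**Figure D1:**
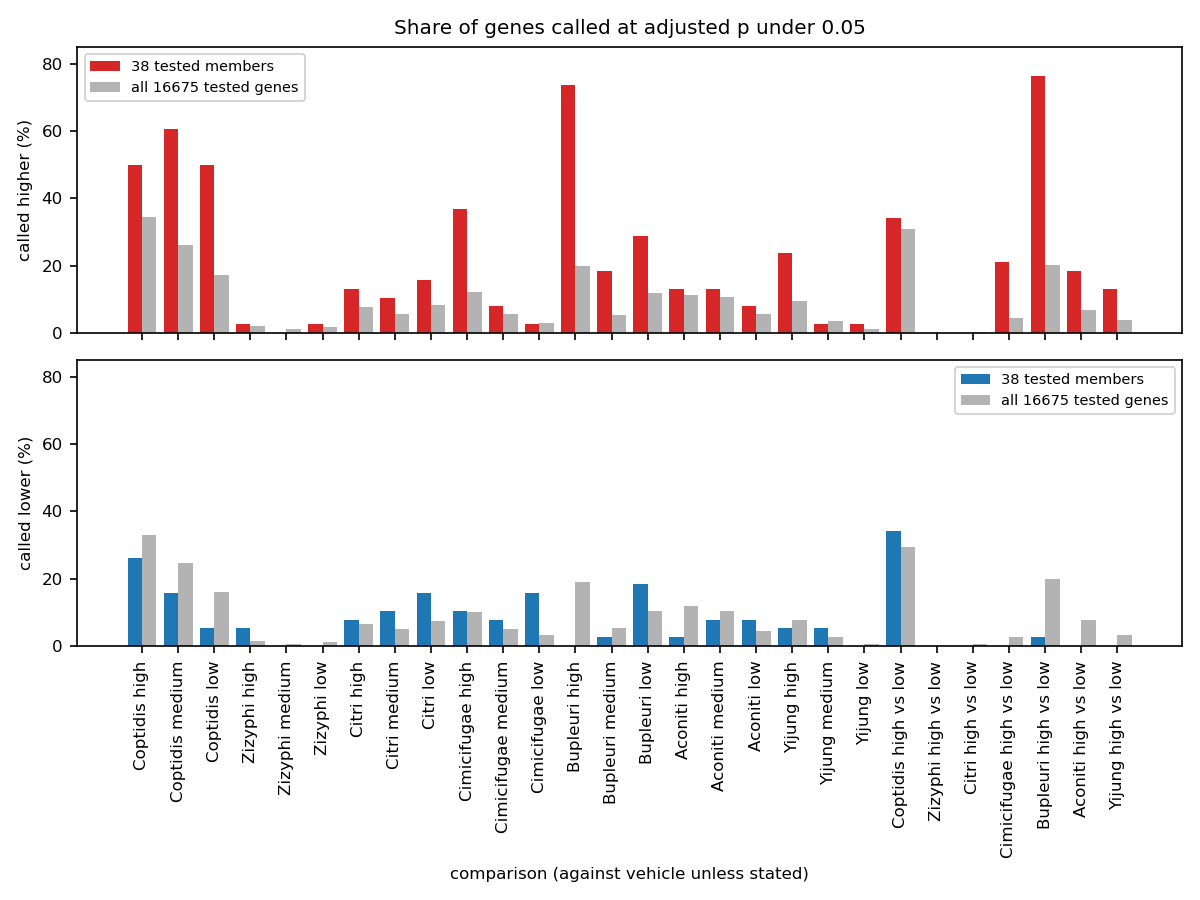
Share of the 38 tested members (coloured bars) and of all 16675 tested genes (grey bars) called higher (upper panel, percent) and lower (lower panel, percent) in each comparison on the horizontal axis, at an adjusted p under 0.05. High-dose Bupleuri stands out in the upper panel at 73.7% of members against 19.9% of all genes, with no member in the lower panel.

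Among the membrane proteins, CLCN7, which exchanges chloride for protons across the lysosomal membrane, was 64.9, 65.7 and 61.0 CPM with vehicle and 109.8, 129 and 122 CPM with high-dose Bupleuri. The groups did not overlap, and the log2 fold change was 0.91 ± 0.06 (SE; adjusted p = 1.8e-17). NPC1, which exports cholesterol from the lysosome, went from 112, 112 and 117 CPM to 182, 179 and 169 CPM, a log2 fold change of 0.64 ± 0.07 (adjusted p = 4.9e-10). LAMP1, the abundant glycoprotein that lines the membrane, was tightly grouped at 233, 238 and 238 CPM with vehicle and 315, 315 and 318 CPM with Bupleuri (0.42 ± 0.03, adjusted p = 1.3e-14). LAMP2 (0.17) and SCARB2, the receptor that carries glucocerebrosidase to the lysosome (0.21), changed least in this class.

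Among the proteases, CTSB was 381, 385 and 384 CPM with vehicle and 533, 535 and 529 CPM with high-dose Bupleuri (log2 fold change 0.47 ± 0.04, adjusted p = 3.1e-15). CTSD (0.44), CTSA, which protects sialidase and galactosidase (0.41), CTSL (0.38) and the tripeptidyl peptidase TPP1 (0.35) were also higher. The 5 proteases therefore lay within a narrow range, from 0.35 to 0.47 on the log2 scale. Of the glycosidases, GLA, the alpha-galactosidase that is lost in Fabry disease, was 27.0, 28.0 and 28.3 CPM with vehicle and 43.3, 43.7 and 43.6 CPM with Bupleuri (0.65 ± 0.06, adjusted p = 1.5e-11). NEU1 was 319, 322 and 323 CPM with vehicle and 465, 470.2 and 483 CPM with Bupleuri (0.56 ± 0.05, adjusted p = 4.7e-13). HEXA, a subunit of hexosaminidase (0.36), NAGLU, which acts on heparan sulfate (0.34), and the glycogen-degrading GAA (0.22) were higher as well, while GLB1, GUSB, MANBA, FUCA1 and FUCA2 did not pass the test. FUCA1, a fucosidase, came nearest to a lower call at −0.14 (adjusted p = 0.0506).

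Of the sulfatases only SGSH, which like NAGLU degrades heparan sulfate, was called (0.37), and ARSA (0.16) and GALNS (0.17) did not pass. ASAH1, the acid ceramidase, was 136, 144 and 146 CPM with vehicle and 218, 202 and 211 CPM with Bupleuri (0.56 ± 0.04, adjusted p = 9.5e-17). PSAP (0.42) and the sterol carrier NPC2 (0.27) were higher, and PPT1, a thioesterase that removes palmitate from proteins, was not called (−0.07). In the pump, the V0 subunits ATP6V0A1 (0.57), ATP6V0B (0.46), ATP6V0C (0.30) and ATP6V0D1 (0.24) and the accessory ATP6AP1 (0.31) were all higher. Of the V1 subunits ATP6V1E1 (0.49), ATP6V1H (0.48), ATP6V1C1 (0.28) and ATP6V1D (0.24) were higher, whereas the 2 subunits of the catalytic ring, ATP6V1A (−0.00) and ATP6V1B2 (0.07), were not called.

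Comparisons that do not use the vehicle were made next. Against the low dose 29 members were higher and 1 lower (all genes 20.2% and 20.0%; median of the members 0.29), namely 5 of 5 membrane proteins, 5 of 5 proteases, 6 of 10 glycosidases, 2 of 3 sulfatases, 2 of 4 lipid-handling proteins, 3 of 5 V0 and accessory subunits and 6 of 6 V1 subunits. The lower member was GUSB (−0.20, adjusted p = 0.0119). The largest differences were those of NPC1 (0.82), CLCN7 (0.73), GLA (0.69), ATP6V0A1 (0.66) and ASAH1 (0.65). The value of NPC1 rests in part on replicate 3 of the low dose, where NPC1 was lower than in the other libraries of that group. Against high-dose Aconiti, the other extract of its set, 29 members were higher and 0 lower (all genes 16.9% and 15.7%; median 0.30), led by NPC1 (0.65), NEU1 (0.63) and ASAH1 (0.56). When replicate 3 of low-dose Bupleuri was left out of the fit, 30 members were higher and 0 lower than at the low dose, of which 27 were among the 30 called before. A fit of the 2 dose groups alone called 12 members higher and 0 lower. Shares of all genes are not given for these refits.

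Fewer members were called at the lower doses. At 56 µg/mL of Bupleuri 7 members were higher and 1 lower (all genes 5.44% and 5.49%), and at 11.2 µg/mL 11 were higher and 7 lower (all genes 11.8% and 10.5%). The medium-dose libraries of CTSB, at 396, 384 and 377 CPM, and of CTSL, at 48.7, 50.8 and 46.9 CPM, lay near the vehicle libraries, whereas CLCN7 was 81.2, 84.1 and 81.8 CPM, above all 3 of them. The low-dose count rests in part on 1 library: replicate 3 had 391 CPM of NEU1 against 318 and 313 CPM in the other low-dose libraries, and 74.3 CPM of NPC1 against 113 and 112 CPM. Without it 4 members were higher and 8 lower than vehicle at the low dose, and 8 of the 18 calls were kept. The share of all genes is not given for that fit.

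**Figure D2:**
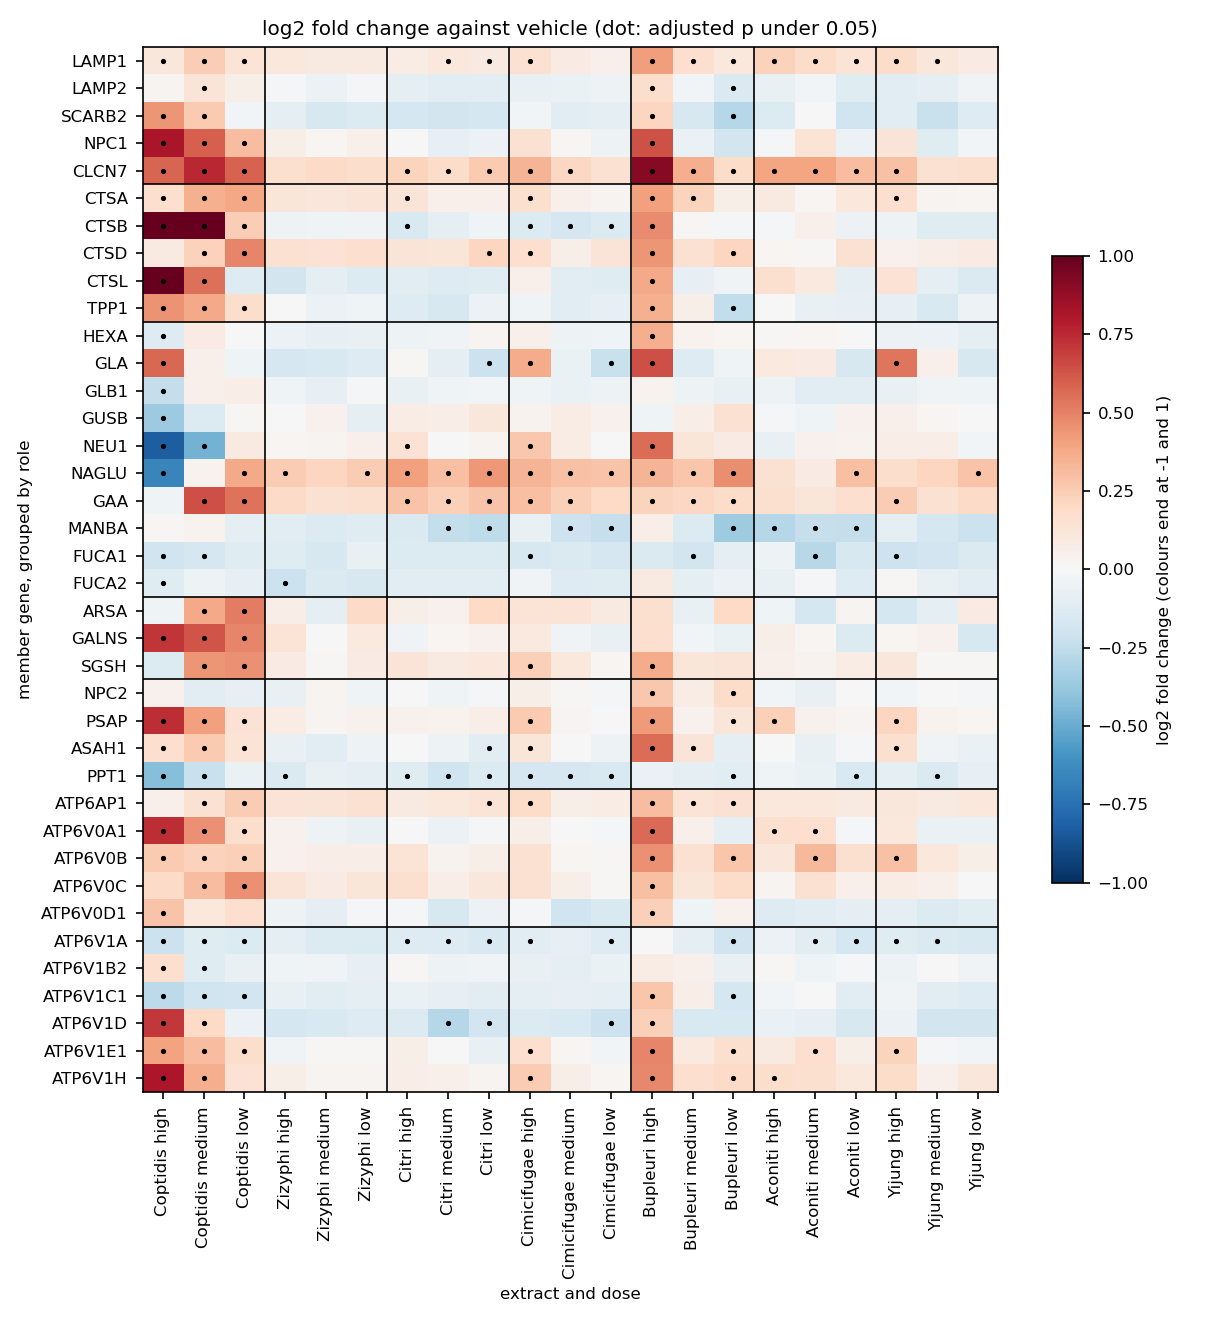
Log2 fold change against vehicle (colour, ending at −1 and 1) of each tested member, in rows grouped by role, for every dose of the 7 extracts with replicates, in columns; a dot marks an adjusted p under 0.05. The high-dose Bupleuri column holds 28 dots, all on higher values, and the high-dose Coptidis column holds 19 on higher and 10 on lower values.

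With Coptidis, members were called in both directions. At the high dose 19 members were higher and 10 lower than vehicle, and of all tested genes 34.5% were higher and 33.0% lower; the median of the members was 0.14. All genes were thus also called often in both directions. Higher members were 4 of 5 membrane proteins and 4 of 5 proteases, with none lower in either class, whereas 7 of 10 glycosidases were lower and 1 higher. Of the sulfatases 1 of 3 was higher, and of the lipid-handling proteins 2 of 4 were higher and 1 lower. The V0 and accessory subunits had 3 of 5 higher, and the V1 subunits 4 of 6 higher and 2 lower. With upper-quartile scaling, which moved the median of all genes to −0.09, 14 members were higher and 11 lower. The share of all genes called with that scaling is not given. By the unadjusted p 20 were higher and 11 lower (all genes 35.6% and 34.2%).

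The 2 cysteine proteases led. CTSL was 50.3, 51.6 and 52.8 CPM with vehicle, 46.8 and 47.1 CPM at 11.2 µg/mL, 67.1 and 83.3 CPM at 56 µg/mL, and 250.3 and 258 CPM at 280 µg/mL. The high-dose libraries stood far above all others, with a log2 fold change of 2.30 ± 0.07 against vehicle (adjusted p = 5.4e-31) and 2.44 ± 0.08 against the low dose (adjusted p = 4.1e-29). CTSB was 381, 385 and 384 CPM with vehicle, 445 and 460.0 CPM at the low dose, 797 and 812 CPM at the medium dose, and 978 and 1047 CPM at the high dose. Each dose of CTSB lay above the one before it, and the high-dose log2 fold change was 1.40 ± 0.04 (adjusted p = 4.0e-32). CTSL is annotated at 9:87725519-87731393 on GRCh38 by GENCODE 29. Its RefSeq start site, at 87726119, lies 600 bases inside those bounds, and sequence before the outer start was not examined.

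Of the members of other classes, NPC1 was 205 and 194 CPM against 112, 112 and 117 CPM with vehicle (0.82 ± 0.08, adjusted p = 1.5e-12). The pump subunit ATP6V1H, which couples V1 to V0, was 49.9 and 55.1 CPM against 28.8, 31.6 and 29.5 CPM (0.81 ± 0.07, adjusted p = 4.1e-14). PSAP was 633 and 669 CPM against 387, 392 and 392 CPM (0.74 ± 0.05, adjusted p = 4.0e-18). ATP6V0A1 (0.74), ATP6V1D (0.71), GALNS (0.71), CLCN7 (0.58), GLA (0.57), TPP1 (0.45), SCARB2 (0.44) and ATP6V1E1 (0.41) were also higher. CTSD was not called at this dose (0.09, adjusted p = 0.232); once GC content and length were modelled it turned to −0.08 with an adjusted p of 0.0138.

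The members lower with high-dose Coptidis were mostly sugar-cleaving enzymes. NEU1 was 319, 322 and 323 CPM with vehicle, 326 and 356 CPM at the low dose, 235 and 226 CPM at the medium dose and 184 and 178 CPM at the high dose (−0.83 ± 0.06 at the high dose, adjusted p = 1.8e-17). NAGLU was 41.7, 41.6 and 43.1 CPM with vehicle, 51.0 and 58.7 CPM at the low dose, 43.7 and 42.4 CPM at the medium dose, and 26.6 CPM in both high-dose libraries (−0.66 ± 0.08, adjusted p = 5.4e-10). NAGLU thus lay above vehicle at the low dose and below it at the high dose. PPT1, a lipid-handling member, was 144 and 145 CPM against 200.4, 193 and 190.1 CPM (−0.43 ± 0.04, adjusted p = 1.6e-12). GUSB was 29.6 and 29.3 CPM against 37.3, 36.7 and 39.6 CPM (−0.36), and ATP6V1C1, a V1 subunit, 70.5 and 70.0 CPM against 85.9, 84.6 and 81.8 CPM (−0.26). Smaller decreases were measured in ATP6V1A (−0.21), GLB1 (−0.24), FUCA1 (−0.20), HEXA (−0.13) and FUCA2 (−0.12).

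**Figure D3:**
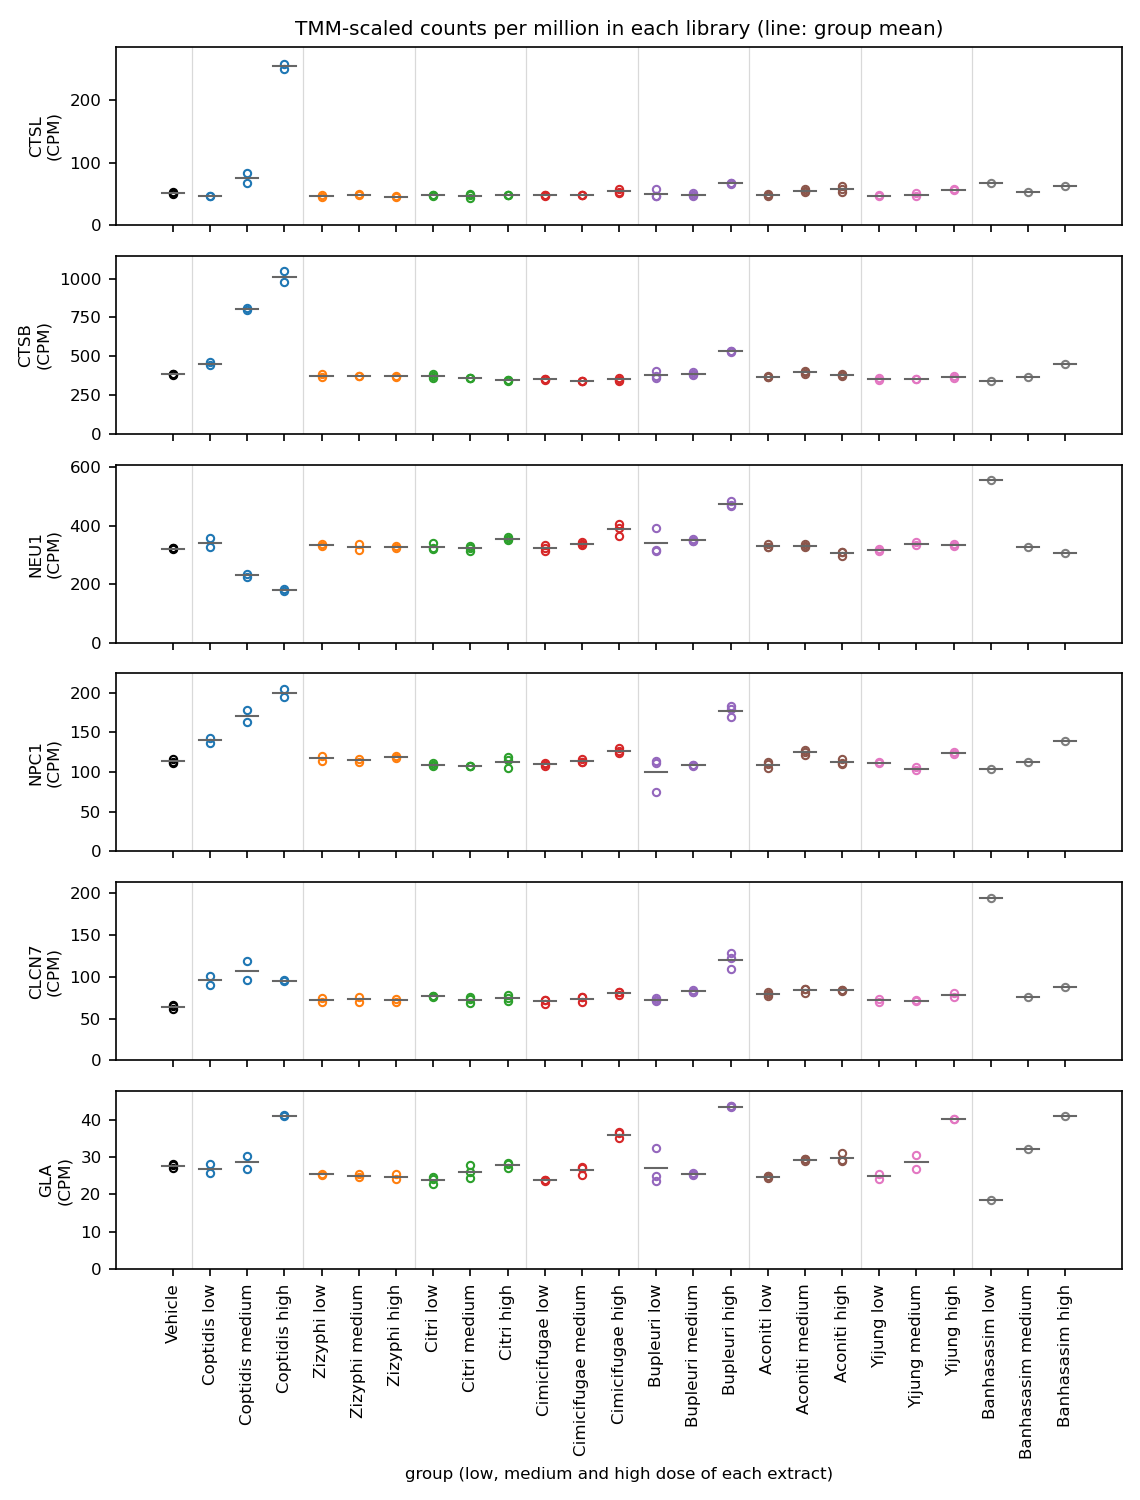
TMM-scaled CPM (vertical axes, starting at 0) of selected members in each of the 60 libraries (points), by group on the horizontal axis, with the group mean as a line. The 2 high-dose Coptidis libraries reach 250.3 and 258 CPM of CTSL and fall to 184 and 178 CPM of NEU1, whose high-dose Bupleuri libraries lie between 465 and 483 CPM.

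At the lower doses of Coptidis members leaned upward. At 11.2 µg/mL 19 were higher and 2 lower (all genes 17.1% and 16.1%; median 0.14), and at 56 µg/mL 23 were higher and 6 lower (all genes 26.1% and 24.6%; median 0.23). The 2 lower at 11.2 µg/mL were the V1 subunits ATP6V1A (−0.13) and ATP6V1C1 (−0.19). At 11.2 µg/mL all 3 sulfatases (ARSA 0.51, GALNS 0.49, SGSH 0.46), CLCN7 (0.59), GAA (0.54), CTSD (0.49), ATP6V0C (0.46), CTSA (0.39) and NAGLU (0.38) were higher. Some of these were near the vehicle level at 280 µg/mL. GAA was 153 and 175 CPM at the low dose and 112 and 107 CPM at the high dose, beside 112, 109.9 and 118 CPM with vehicle. SGSH was 75.7 and 85.4 CPM at the low dose and 52.7 and 53.5 CPM at the high dose, beside 58.0, 57.5 and 60.4 CPM. The 2 medium-dose libraries differed from each other in some members, as in GAA (201 and 149.9 CPM) and CTSD (365 and 295 CPM). The part of the higher share of mitochondrial ribosomal RNA in the low- and medium-dose libraries was not tested.

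Within the extract, high-dose against low-dose Coptidis gave 13 members higher and 13 lower (all genes 30.9% and 29.3%; median −0.01). As shares, 34.2% of the members were higher and 34.2% lower, near those of all genes, so these counts are not a result about the members. By class, as a description of few genes, 6 of 10 glycosidases and 2 of 3 sulfatases were lower, and 4 of 6 V1 subunits were higher with none lower. NAGLU (−1.04 ± 0.08, adjusted p = 9.7e-15) and NEU1 (−0.92 ± 0.06, adjusted p = 1.0e-17) fell most, followed by SGSH (−0.60), GAA (−0.58) and ARSA (−0.55). After CTSL and CTSB (1.16), ATP6V1D (0.77), ATP6V1H (0.66), GLA (0.61) and PSAP (0.59) rose most. Against high-dose Zizyphi, of the same set, 16 were higher and 9 lower (all genes 33.0% and 31.4%; median 0.10), with CTSL at 2.49, CTSB at 1.46, NAGLU at −0.91 and NEU1 at −0.84.

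Coptidis and Bupleuri were given at the same 3 concentrations, so their high-minus-low differences could be compared. Against vehicle, the median of the members was 0.14 with low-dose Coptidis and 0.00 with low-dose Bupleuri. A smaller difference thus need not mean a lower level at the high dose. The difference was larger with Coptidis for 5 members and smaller for 22 of 38 (all genes 21.7% larger and 22.3% smaller; median −0.32). The 5 were CTSL (2.02 ± 0.10 on the log2 scale, adjusted p = 1.4e-21), CTSB (0.68 ± 0.06, adjusted p = 3.4e-14), ATP6V1H (0.38), ATP6V1D (0.37) and PSAP (0.30). The largest on the other side was NEU1 (−1.39 ± 0.08, adjusted p = 1.2e-19), then NAGLU (−0.92 ± 0.11), SGSH (−0.84), CLCN7 (−0.74), CTSD (−0.63), GAA (−0.62) and ASAH1 (−0.61). Extracts belong to different sets, and each was compared with its own low dose; without replicate 3 of low-dose Bupleuri 5 differences were larger and 27 smaller, and 27 of the 27 calls were kept. A fit of the 4 groups alone called 2 larger and 14 smaller. Shares of all genes are not given for these refits.

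Joint calls were not counted over all tested genes, so the joint counts below describe the members only. By the calls within each extract, 13 members were higher at the high dose than at the low dose of both extracts. Of these CTSB, CTSL, PSAP, ATP6V1D and ATP6V1H rose more with Coptidis, NPC1 and TPP1 rose more with Bupleuri, and for SCARB2, GLA, GALNS, ATP6V0A1, ATP6V1B2 and ATP6V1E1 the difference between extracts was not called. For GLA it was −0.08 ± 0.10 (adjusted p = 0.571), from increases of 0.61 and 0.69. Another 7 members, CTSA, CTSD, HEXA, GLB1, NEU1, SGSH and ATP6AP1, were lower at the high dose of Coptidis and higher at the high dose of Bupleuri. A further 9 were higher with Bupleuri and not called with Coptidis, among them LAMP1, CLCN7 and ASAH1, whose differences between extracts were −0.33, −0.74 and −0.61 and were called. The 5 members NAGLU, GAA, ARSA, PPT1 and ATP6V0C were lower with Coptidis and not called with Bupleuri, GUSB was lower with both, and FUCA1, NPC2 and ATP6V0B were called with neither.

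**Figure D4:**
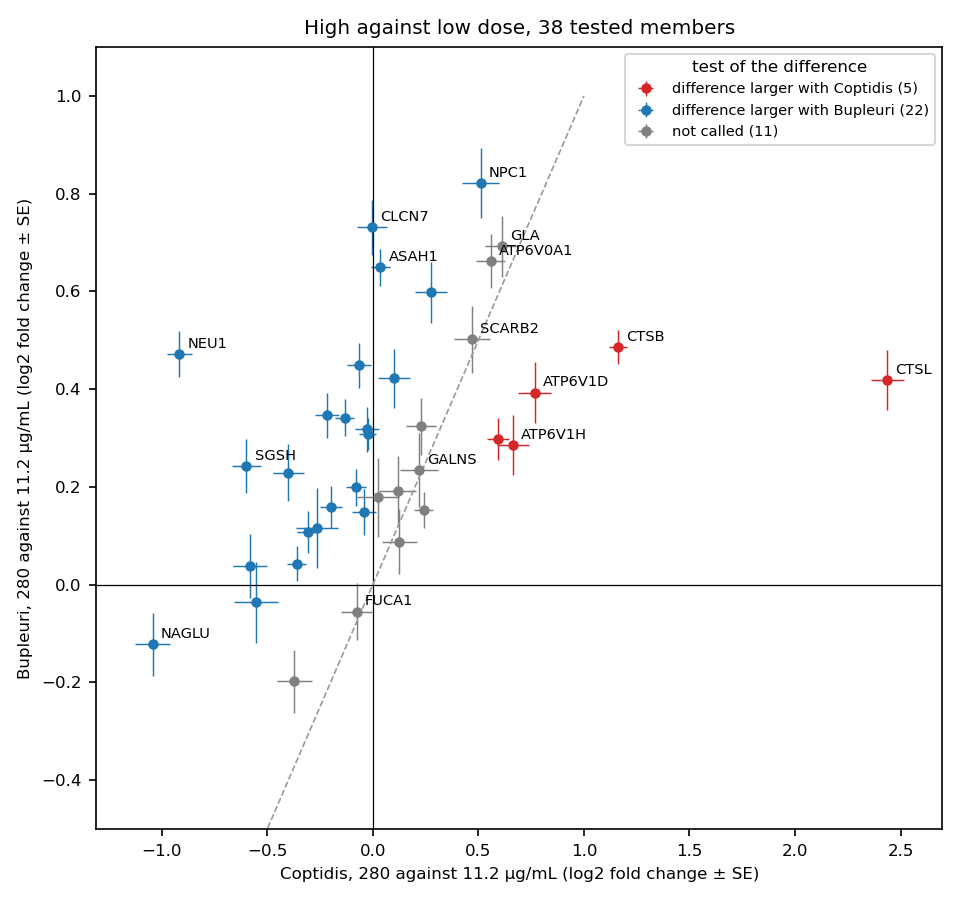
High against low dose (280 against 11.2 µg/mL) of Coptidis (horizontal axis, log2 fold change ± SE) and Bupleuri (vertical axis, log2 fold change ± SE) for the 38 tested members (points), coloured by the test of the difference between the 2 extracts; the dashed line marks equal change. CTSL lies far to the right at 2.44 on the Coptidis axis, and NEU1 lies at the upper left with −0.92 and 0.47.

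Of the other extracts, Cimicifugae had the most members higher at its high dose, 500 µg/mL, with 14 higher and 4 lower against vehicle (all genes 12.1% and 10.0%; median 0.08). GLA was 36.6, 35.1 and 36.4 CPM (0.37, adjusted p = 1.9e-05), NAGLU 54.6, 51.0 and 55.2 CPM (0.34) and CLCN7 82.2, 78.5 and 82.1 CPM (0.34), all above the 3 vehicle libraries. PPT1 was 175, 171 and 175 CPM (−0.17), FUCA1 31.1, 29.5 and 32.2 CPM (−0.16) and CTSB 362, 341 and 348 CPM (−0.13), all below them. Against its own low dose 8 were higher and 0 lower (all genes 4.41% and 2.73%), with GLA at 0.60 (adjusted p = 1.5e-09). Against high-dose Citri, of the same set, 2 were higher and 0 lower (all genes 2.88% and 1.19%). By the unadjusted p 11 were higher and 1 lower (all genes 8.17% and 5.55%), and DESeq2 called 3 and 0. For DESeq2 counts, here and below, shares of all genes are not given, so these counts are not a result about the members.

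High-dose Yijung-tang, a formula, gave 9 members higher and 2 lower (all genes 9.49% and 7.84%). GLA was 40.1 CPM in both libraries (0.54, adjusted p = 1.6e-07), ATP6V0B was 82.3 and 83.8 CPM (0.30) and CLCN7 was 76.0 and 80.0 CPM (0.29). The 2 lower members were FUCA1, at 29.96 and 29.4 CPM (−0.21), and ATP6V1A, at 122 and 115 CPM (−0.12). Against its low dose 5 were higher and 0 lower (all genes 3.98% and 3.31%), with GLA at 0.70 (adjusted p = 6.9e-09). By the unadjusted p the counts were 10 and 1 (all genes 9.70% and 8.49%), and DESeq2 called 5 and 0. High-dose Aconiti gave 5 higher and 1 lower (all genes 11.2% and 12.0%). The share of members higher, 13.2%, is near that of all genes, and the medians were 0.00 for members and 0.02 for all genes. The number of higher members is thus not a result about the members. CLCN7 was 84.5, 84.8 and 82.9 CPM (0.40, adjusted p = 1.1e-06). PSAP was 455, 466 and 463 CPM (0.24), LAMP1 271, 281 and 281 CPM (0.23) and MANBA, the lower member, 32.7, 33.1 and 33.2 CPM (−0.29). Against low-dose Aconiti 7 were higher and 0 lower (all genes 6.77% and 7.83%), GLA and CTSL both at 0.26. By the unadjusted p 8 were higher and 3 lower (all genes 13.0% and 13.0%), and DESeq2 called 7 and 0. Shares of all genes called by DESeq2 are not given.

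High-dose Citri gave 5 members higher and 3 lower (all genes 7.73% and 6.51%). NAGLU was 58.0, 53.7 and 56.3 CPM (0.41) and GAA 134, 142 and 136 CPM (0.29). CTSB was 348, 342 and 346 CPM (−0.15), ATP6V1A 118, 119 and 118 CPM (−0.13) and PPT1 175, 186 and 176 CPM (−0.12). CLCN7, at 78.4, 75.0 and 70.4 CPM, was called at 0.23 (adjusted p = 0.00611), but at −0.02 (adjusted p = 0.83) once GC content and length were modelled. Against its low dose no member was called (all genes 0.252% and 0.528%). By the unadjusted p 4 were higher and 1 lower (all genes 4.14% and 4.97%), and DESeq2 called 1 and 1, with no share of all genes given for DESeq2. High-dose Zizyphi gave 1 higher, NAGLU at 50.1 and 50.6 CPM (0.25), and 2 lower, FUCA2 at 183 and 174 CPM and PPT1 at 179.5 and 175 CPM (all genes 2.07% and 1.57%). Against low-dose Zizyphi 0 members were called by edgeR, 0 by the unadjusted p and 0 by DESeq2 (all genes 0% and 0.00600%, or 1.24% and 1.52% by the unadjusted p).

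In the fit of all groups together, few members were called at the lower doses of these extracts. Replicate 3 of low-dose Bupleuri is part of that fit. Without that library more members were called at several of these doses, and at the high doses of Citri, Aconiti and Zizyphi (counts below). The share of all genes is not given for that refit. At 100 µg/mL Cimicifugae gave 3 higher and 3 lower (all genes 5.57% and 5.12%), and at 20 µg/mL 1 higher and 6 lower (all genes 2.95% and 3.15%). Citri gave 4 higher and 4 lower at 100 µg/mL (all genes 5.54% and 4.97%), and 6 and 6 at 20 µg/mL (all genes 8.38% and 7.56%). Aconiti gave 5 higher and 3 lower at 100 µg/mL (all genes 10.6% and 10.3%), and 3 and 3 at 20 µg/mL (all genes 5.51% and 4.38%). Yijung-tang gave 1 higher and 2 lower at 100 µg/mL (all genes 3.60% and 2.65%), and 1 and 0 at 20 µg/mL (all genes 1.20% and 0.486%). Zizyphi gave 0 and 0 at 100 µg/mL (all genes 1.19% and 0.732%), and 1 and 0 at 20 µg/mL (all genes 1.73% and 1.07%). With 100 µg/mL of Zizyphi 7 were higher and 8 lower by the unadjusted p (all genes 7.99% and 7.78%), and DESeq2 made 1 call, with no share of all genes given. Shares of members near those of all genes, as in most of these comparisons and some of the high-dose ones above, are not a result about the members.

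Banhasasim-tang had 1 library at each dose, so its differences have no replicate check and no p-value. At 500 µg/mL 0 members passed a 1.5-fold difference from vehicle in either direction (all genes 8.44% higher and 6.25% lower; median of the members 0.11), with GLA at 40.9 CPM, CTSB at 451 CPM and NPC1 at 139 CPM. At 100 µg/mL 0 passed as well (all genes 5.16% and 5.00%). At 20 µg/mL 8 were higher and 10 lower (all genes 30.3% and 31.3%); that is the library with the smallest depth and the least mitochondrial ribosomal RNA. In it CLCN7 was 194 CPM and NEU1 555 CPM, the highest of all 60 libraries, and LAMP2 was 59.8 CPM, the lowest.

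The members with the word TCACGTG in the promoter window were set beside the members without it, as a description with no test; the first group holds 9 genes, the second 16 tested genes, and they were not matched for base composition. With low-dose Coptidis 7 of 9 with the word were higher (median 0.39) and 6 of 16 without it (median −0.01), where 17.1% of all tested genes were higher. With high-dose Coptidis the counts were 6 higher and 1 lower of 9 (median 0.17), and 8 higher and 5 lower of 16 (median 0.30), where 34.5% of all genes were higher and 33.0% lower. With high-dose Bupleuri 8 of 9 were higher (median 0.42) and 11 of 16 (median 0.29), where 19.9% of all genes were higher, but against low-dose Bupleuri the medians were 0.23 and 0.24.

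**Figure D5:**
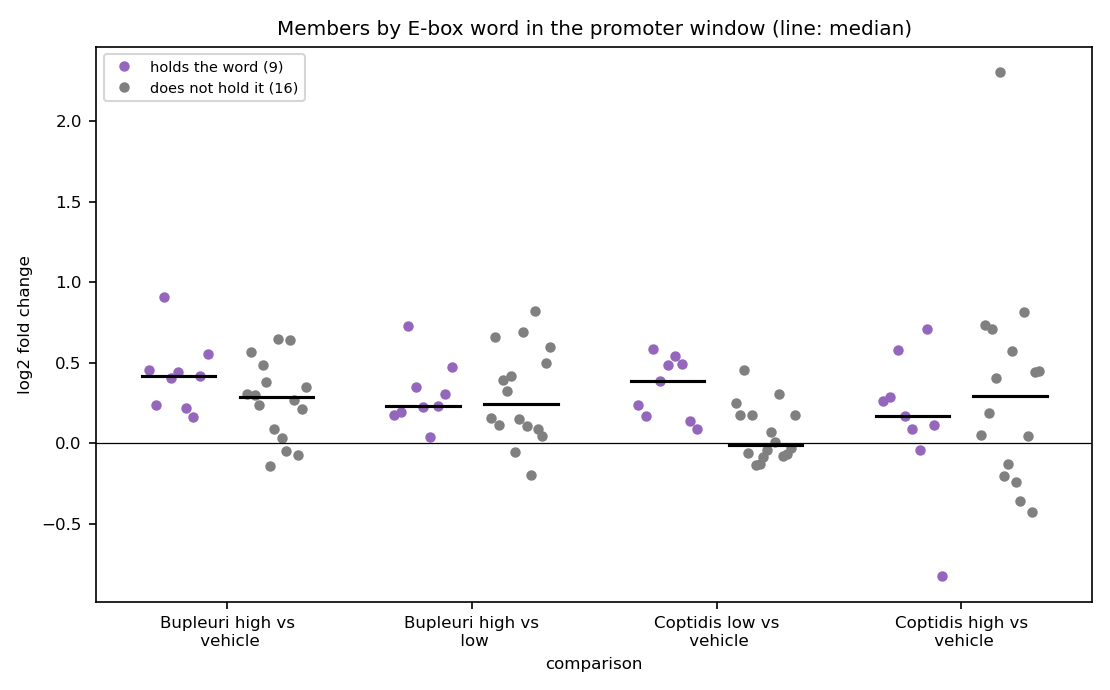
Log2 fold change (vertical axis) of each tested member with a known promoter window in 4 comparisons (horizontal axis), split by whether the window holds TCACGTG (9 members) or not (16); lines are medians. With low-dose Coptidis the medians are 0.39 and −0.01, and against low-dose Bupleuri the high dose gives 0.23 and 0.24.

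Other genes of the pathway were read from 5 lists, whose counts stand against 19.9% of all tested genes higher and 19.1% lower with high-dose Bupleuri, and 34.5% and 33.0% with high-dose Coptidis. Of 17 tested regulators around TFEB and nutrient sensing, 7 were higher and 1 lower with high-dose Bupleuri (median log2 fold change 0.30), and 8 higher and 4 lower with high-dose Coptidis (median 0.26). RRAGD, a Rag GTPase that anchors TFEB and mTORC1 to the lysosome, was low throughout, at 1.20, 0.867 and 0.807 CPM with vehicle, 3.498, 2.66 and 2.76 CPM with Bupleuri and 2.96 and 3.12 CPM with Coptidis. Its log2 fold changes were 1.62 and 1.66. FLCN, which acts on the Rag GTPases, was 0.89 with Bupleuri and 1.02 with Coptidis, and RRAGC was 0.57 and 0.78. LAMTOR2 (−0.69), FNIP2 (−0.62) and RRAGB (−0.61) were lower with Coptidis and not called with Bupleuri. TFEB and TFE3, and MCOLN1 in the next list, are named after their values were seen. TFE3 was 0.49 with Bupleuri and 0.68 with Coptidis. TFEB itself was lower with Bupleuri (−0.32) and was not called with Coptidis (0.12).

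Of 15 other membrane proteins and transporters tested, 10 were higher and 1 lower with high-dose Bupleuri (median 0.37), and 6 higher and 4 lower with high-dose Coptidis (median 0.03). OSTM1, the partner subunit of CLCN7, was 0.61 with Bupleuri and 0.84 with Coptidis, the tetraspanin CD63 was 0.41 and 0.77, and the calcium channel MCOLN1 was 0.70 and 0.55. LAPTM5 lay at 1.20 CPM or less in these groups. TMEM175 (−0.88), LAPTM4A (−0.68) and HGSNAT (−0.59) were lower with Coptidis. Of 25 further hydrolases and activators, 10 were higher and 7 lower with Bupleuri (median 0.05), and 10 higher and 11 lower with Coptidis (median −0.18), and with Coptidis the share higher is near that of all genes. IDS, a sulfatase of heparan and dermatan sulfate, was 0.73 with Bupleuri and 2.11 with Coptidis. CTSS (1.15) and CTSK (1.07), cysteine proteases, were called higher with Coptidis at levels of at most 1.61 CPM. The activator protein GM2A (−1.86), CTSV (−1.47) and LIPA, the acid lipase (−1.42), were lower with Coptidis; LIPA was not called with Bupleuri (0.05).

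In the sorting machinery for mannose 6-phosphate, 3 of 7 were higher and 1 lower with Bupleuri (median 0.14), and 1 higher and 4 lower with Coptidis (median −0.20). The receptor IGF2R was 0.75 with Bupleuri and 0.41 with Coptidis. SUMF1, which activates the sulfatases, was −1.28 with Coptidis and 0.05 with Bupleuri, the sorting receptor SORT1 was −1.03 and −0.25, and NAGPA, which uncovers the mannose 6-phosphate tag, was −0.94 and 0.27. Of the 12 remaining subunits of the vacuolar pump tested, 3 were higher and 0 lower with Bupleuri (median 0.12), and 2 higher and 5 lower with Coptidis (median −0.09). ATP6V1G1 was 0.41 with Bupleuri and 0.31 with Coptidis, and ATP6V0E2 (−1.08), ATP6V1C2 (−0.81) and ATP6V1E2 (−0.46) were lower with Coptidis. ATP6V0D2 was at 0.0414, 0 and 0 CPM with vehicle and 1.35 and 1.74 CPM with high-dose Coptidis, where it was called higher. Against their own low doses, where 20.2% of all genes were higher and 20.0% lower with Bupleuri and 30.9% and 29.3% with Coptidis, the TFEB list had 7 higher and 1 lower with Bupleuri and 6 and 3 with Coptidis. The membrane list had 11 and 1, and 4 and 5; the hydrolases 8 and 6, and 7 and 11; the sorting list 2 and 0, and 0 and 5; and the pump subunits 4 and 2, and 3 and 3.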

How the data were processed

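Total RNA (integrity number above 7) was sequenced as 100-nt paired reads, per the labels' protocols. RSEM 1.3.3, STAR 2.7.3a, Trim Galore 0.6.5 and FastQC 0.11.9, on GRCh38, appear in the submitters' processing notes; the annotation release was not given in the sources used here. Values that the authors deposited are RSEM's expected counts for each gene, without normalization; 8.75% were not whole. Of 267 columns in the table, 207 belong to no sample used here.

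Counts were rounded and tested with edgeR 4.0.16 (R 4.3.3): TMM scaling, filterByExpr, robust quasi-likelihood fits with 1 coefficient for each of 22 groups over 57 libraries (35 residual degrees of freedom, BCV 6.14%), and Benjamini-Hochberg adjustment over 16675 genes within each of 32 comparisons, called at an adjusted p under 0.05. SE was taken as |log2 fold change| over the root of F. Banhasasim-tang was compared as log2 ratios (prior count 2). CPM are TMM-scaled, and levels per kilobase use GENCODE transcript lengths. Depth of 18015554 to 29549531 counts per library sets the precision. The script was tested on simulated data. Alternatives were DESeq2 1.42.0, other scalings, GC and length offsets, no filter, separate fits, a replicate block and leaving out libraries. All members are counted; values by library were required for the 5 largest rises and falls among called members with high-dose Coptidis, the 3 and 3 with each other high dose, and a panel of 7 (LAMP1, CTSD, CTSB, GLA, NPC1, ATP6V0D1, ATP6V1H), read in all groups. Of other lists up to 3 and 3 called genes with high-dose Coptidis are named. Members and lists were chosen with earlier results of these data known.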

Additional observations from a re-analysis of the deposited data

Results flagged for a closer look

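The difference between high and low dose was itself compared between the 2 extracts given at 280 and 11.2 µg/mL. By edgeR's test of that difference, 22 of the 38 tested members had a smaller high-minus-low difference with Coptidis than with Bupleuri, and 5 had a larger one. The 2 ends were NEU1 at −1.39 and CTSL at 2.02 on the log2 scale. Against vehicle the median of the members was 0.14 with low-dose Coptidis and 0.00 with low-dose Bupleuri, so the 2 low doses were not equal starting points. The extracts belong to different sets, and set and extract cannot be told apart.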

How the results depend on the processing

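No called member changed sign when 1 library of the groups compared was left out. The ranges here do not cover leaving out a library of another group. For several comparisons, the fit without replicate 3 of low Bupleuri, given further on, lies outside them. The lowest and highest numbers of members called were as follows. Against vehicle they were 25 and 29 for high, 20 and 28 for medium and 13 and 19 for low Coptidis; 27 and 30, 4 and 7, and 8 and 23 for Bupleuri; 12 and 16, 3 and 5, and 1 and 6 for Cimicifugae; 4 and 6, 3 and 7, and 6 and 12 for Citri; 4 and 5, 6 and 8, and 5 and 7 for Aconiti; 5 and 10, 0 and 2, and 0 and 1 for Yijung-tang; and 0 and 2, 0 and 0, and 0 and 0 for Zizyphi. For high against low dose they were 22 and 25 (Coptidis), 27 and 30 (Bupleuri), 4 and 9 (Cimicifugae), 0 and 0 (Citri), 3 and 5 (Aconiti), 2 and 3 (Yijung-tang) and 0 and 0 (Zizyphi). They were 23 and 26 for Coptidis against Zizyphi, 26 and 30 for Bupleuri against Aconiti, 2 and 3 for Cimicifugae against Citri, and 25 and 32 for the difference between Coptidis and Bupleuri. A lone library left in a group was assumed to vary like the other groups.

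Members called under other settings moved as follows where the count changed by over 1.5 times, and the cause was not tested. Shares of all genes are not given for the counts in this section, so these counts are not a result about the members. DESeq2 called 5 for high, 1 for medium and 3 for low Zizyphi, 5 for medium and 3 for low Yijung-tang, and 2 for high against low Citri. With GC and length offsets there were 0, 1 and 0 calls for high, medium and low Zizyphi, 15 for high Aconiti, 3 for low Citri, 3 for low Cimicifugae, 7 for low Bupleuri, 0 for low Yijung-tang, 2 for high against low Citri, 9 for high against low Yijung-tang, and 8 for Cimicifugae against Citri. With those offsets CTSD was −0.083 with high Coptidis (adjusted p = 0.0138), −0.069 with Cimicifugae (0.0673), −0.156 with Aconiti (1.3e-05) and −0.118 with Yijung-tang (0.00305), and CLCN7 was −0.020 with Citri (0.83), all on the other side of 0. Upper-quartile scaling gave 0 for low Zizyphi and 3 for high against low Yijung-tang.

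A fit of 56 libraries, without replicate 3 of low Bupleuri, was chosen after seeing the data. It called 7 members for high, 4 for medium and 4 for low Zizyphi, 13 for high and 14 for medium Citri, 10 for medium and 11 for low Cimicifugae, 17 for medium Bupleuri, 11 for high and 15 for low Aconiti, 10 for medium and 4 for low Yijung-tang, and, for high against low, 2 (Citri), 14 (Cimicifugae), 11 (Aconiti) and 8 (Yijung-tang), with 7 for Cimicifugae against Citri. Without the filter, over 33790 genes, it was 1 for high Zizyphi, 3, 5 and 5 for high, medium and low Citri, 11, 3 and 2 for Cimicifugae, 5 for medium Bupleuri, 3 for low Aconiti, 7 and 0 for high and medium Yijung-tang, and 3 and 3 for high against low Aconiti and Yijung-tang. In separate fits of the groups compared it was 14, 9 and 7 for high, medium and low Zizyphi, 18, 16 and 20 for Citri, 18 and 16 for medium and low Cimicifugae, 21 and 0 for medium and low Bupleuri, 14, 16 and 19 for Aconiti, 19, 19 and 13 for Yijung-tang, 1, 12, 11 and 10 for high against low Citri, Bupleuri, Aconiti and Yijung-tang, 4 for Cimicifugae against Citri, and 16 for the difference between Coptidis and Bupleuri. The median of Banhasasim-tang members was 0.087 at the high and 0.058 at the medium dose against Yijung-tang, and 0.111 and 0.008 against vehicle.

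Whether replicate numbers pair the libraries could not be settled, as groups shared at most 3 numbers. With 3 shared numbers, no comparison had every correlation above 0.1. A replicate block kept all calls of members and moved no count by more than 1, as for high Yijung-tang (12 against 11). Of values for named members, 1872 stayed on their side of the threshold, 50 passed it, 96 no longer passed it and 5 changed sign. DESeq2 called 28 of 38 members higher and 0 lower with high Bupleuri. CTSZ was left out by the filter on low counts.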
